A study of Mus musculus with 5 samples.

Results

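The genes described here are 38 genes of homologous recombination and the Fanconi anaemia pathway, taken from a list of symbols and matched to the deposited Ensembl identifiers through GENCODE M21. All 38 were among the 54838 genes listed and among the 14933 genes with enough reads to test. The study knocked down Ewsr1, the gene of the RNA-binding protein EWS, in the N2a line of mouse neuroblastoma cells. It has 3 libraries from cells given siRNA to Ewsr1 (siEwsr1) and 2 from cells given a control siRNA (siCtrl). In both groups 50000 cells were transfected with lipid in 2 pulses and harvested 24 hours later, and a stranded kit that depletes ribosomal RNA was used on 2 µg of their total RNA. The siRNA concentration is labelled 100 µM, which may be a slip of the unit. The groups differ by the siRNA alone, as far as the labels say; the sequence or number of the siRNAs is not given there, so a response to the siRNA itself cannot be told apart from a response to the loss of Ewsr1. The design text speaks of different RNA for each library but names no separate cultures. The p-values therefore reflect how far these 5 libraries scatter, and part of that scatter may be technical. In bulk RNA, fewer cells making a transcript and less transcript per cell cannot be told apart.

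Homologous recombination copies the lost sequence at a DNA break from the sister chromatid, and so serves mainly in S and G2 phase. Kinases sense the damage and halt the cycle, nucleases trim the broken ends to single strands, and the BRCA proteins and their partners prepare these strands for pairing with the sister chromatid. The Fanconi pathway deals with crosslinks between the strands: a core complex attaches ubiquitin to the FANCD2 and FANCI pair, which brings in nucleases and hands the resulting break to recombination. Many of these genes are transcribed under E2F control as cells enter S phase.

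Levels are given as RPKM, which are reads scaled to exon length and library size, further scaled between libraries by the trimmed-mean (TMM) method. Ewsr1, the target of the siRNA, measured 71.9 and 70.8 RPKM in siCtrl and 36.2, 36.8 and 37.3 in siEwsr1. Its log2 fold change was -0.96 (SE 0.0809, limma adjusted p = 8.05e-04), so the libraries labelled siEwsr1 still held Ewsr1 RNA. Counted reads ranged from 15045774 to 21339459 per library. Mitochondrial rRNA took 1.55% and 0.799% of reads in siCtrl and 1.66%, 2.42% and 1.67% in siEwsr1, so it was higher in all siEwsr1 libraries, and its part in the results was not tested. On the first principal component (45.4% of the variance) siEwsr1 replicate 3 scored -0.209, between the controls (-21.3 and -28.7) and the other siEwsr1 libraries (16.3 and 33.9) and its effect on the counts is given with them. Of 14 neuroblastoma and neuronal markers, 12 passed the read filter and 4 of these were higher in siEwsr1, against 2.47% of all genes tested. The 14 summed to 950 to 955 RPKM in siCtrl and 1029 to 1134 in siEwsr1. Nefl and Nefm, the neurofilament genes, lay under 0.03 RPKM in every library. The 9 fibroblast and mural markers summed to 3.16 to 3.45 RPKM in siCtrl and 1.17 to 1.35 in siEwsr1, with Col3a1, Lum and Thy1 at 0 throughout. Of these 9, 3 passed the read filter and 1 was lower in siEwsr1. Most of the sum was Acta2, at 0.79 to 2.89 RPKM over the libraries, and the next highest, Pdgfra, reached 0.390. Blood, epithelial and glial markers summed to at most 1.44 RPKM per list in any library.

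Of the 38 members, 3 rose after Ewsr1 siRNA: Atm, the kinase that responds to broken DNA ends, Brca2, a mediator of homologous recombination, and Fanca, a subunit of the Fanconi core complex. None fell. All 3 calls depend on the fit. Here limma's variance trend followed the number of reads, a choice made after the usual trend on mean RPKM had been run. The usual trend called Atm alone, against 0.783% of all genes higher. Atm itself was not called by limma with no trend (adjusted p = 0.078) or with no filter beyond 1 read (adjusted p = 0.0553). Over all genes tested, 5.16% were called, 2.47% higher and 2.69% lower (limma on log2 of RPKM + 0.1, Benjamini-Hochberg adjusted p under 0.05 over the 14933 genes), and 3 of 38 is 7.89%. At an unadjusted p under 0.05, limma gave 10 members higher, against 11.2% of all genes, and 0 lower, against 11.0%; limma-voom on the recovered reads also called 0 members lower. The log2 fold change was above 0 in 28 members and below 0 in 10, where 49.4% of all genes lay above 0. Its median over the members was 0.12, with a range from -0.34 (Fancf) to 0.85 (Atm), against -0.0055 over all genes. The groups did not overlap in 19 members, against 39.9% of all genes. In 17 of these all 3 siEwsr1 libraries lay above both siCtrl libraries, as in 2980 of the 14933 genes, and in 2, Chek2 and Fancf, they lay below both, as in 2973 genes. The plot of changes by role shows these values together.

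**Figure D1:**
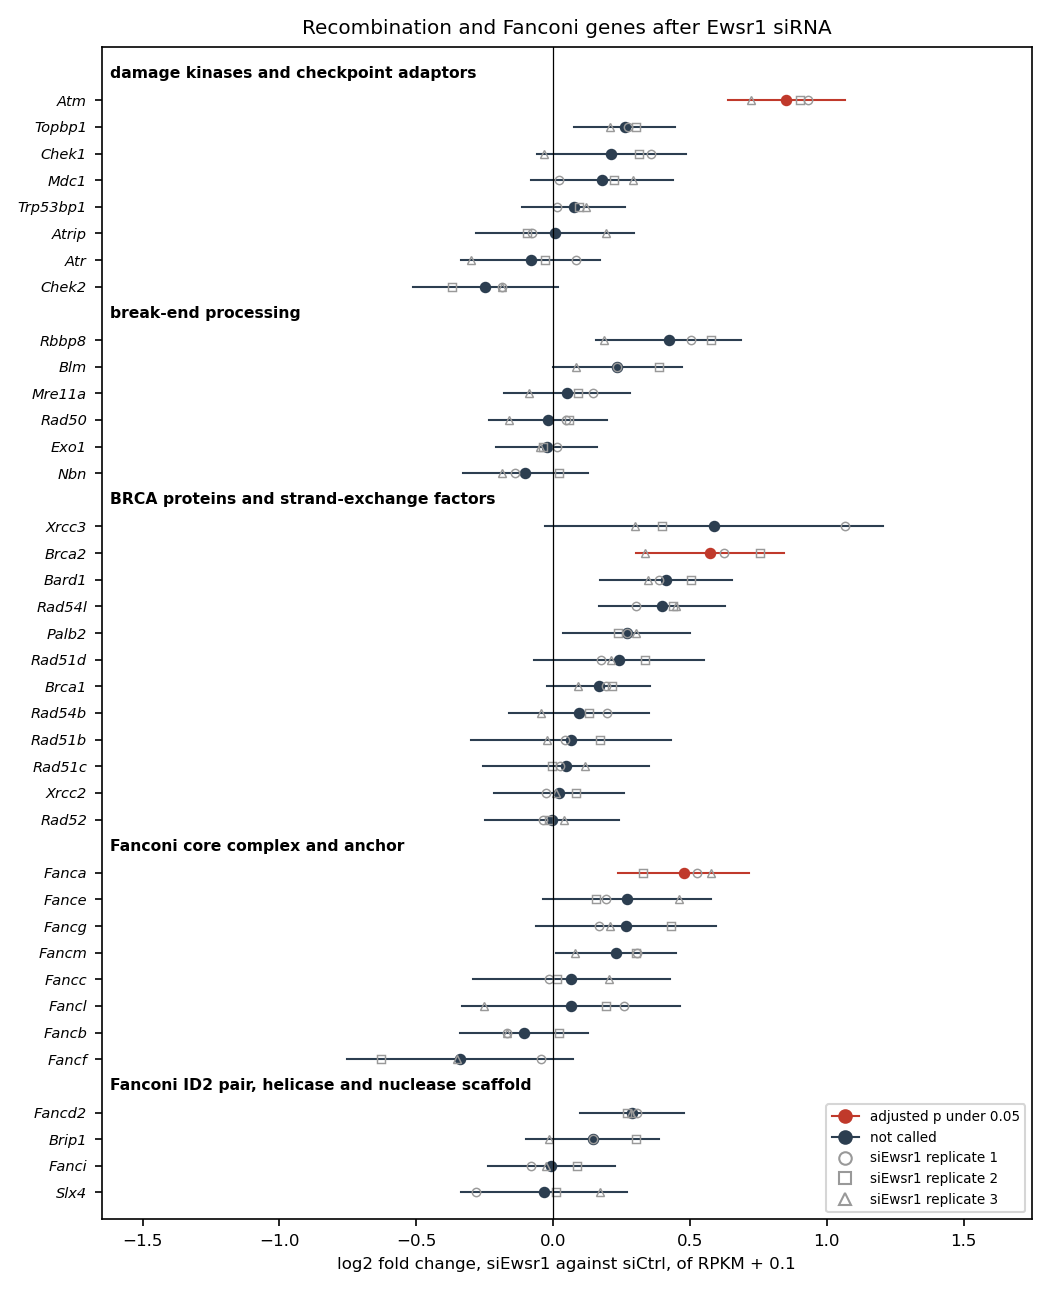
Log2 fold change of each member, siEwsr1 against siCtrl, on the scale of log2 of RPKM + 0.1 (horizontal axis), grouped by role. Filled points and lines are the limma estimate and its 95% interval, red where the adjusted p is under 0.05, and open grey symbols are the single siEwsr1 libraries against the siCtrl mean. Atm stands farthest to the right at 0.85, with Brca2 (0.57) and Fanca (0.48) the other red points.

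The sets of calls depended on which libraries entered the fit. With either siCtrl library left out, none of the 38 members was called, and all genes gave only 12 and 6 calls in these fits. The fit that left out siEwsr1 replicate 1 called Atm, against 0.285% of all genes higher. Leaving out siEwsr1 replicate 2 left Atm, Brca2 and Fanca called, against 1.84%. Without siEwsr1 replicate 3, the library nearest to the controls, 12 members were called higher, against 13.0% of all genes. These 12 were Atm, Chek1, Topbp1, Rbbp8, Blm, Brca1, Bard1, Brca2, Rad54l, Fanca, Fancm and Fancd2, or 3 of the kinases and adaptors, 2 of end processing, 4 of the BRCA and strand-exchange group, 2 of the core complex and 1 downstream of it. With all 5 libraries, limma-voom on the recovered reads called Atm, Brca2 and Fanca higher, against 2.62% of all genes, and a pseudocount of 1 left Atm alone, against 1.14%.

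**Figure D2:**
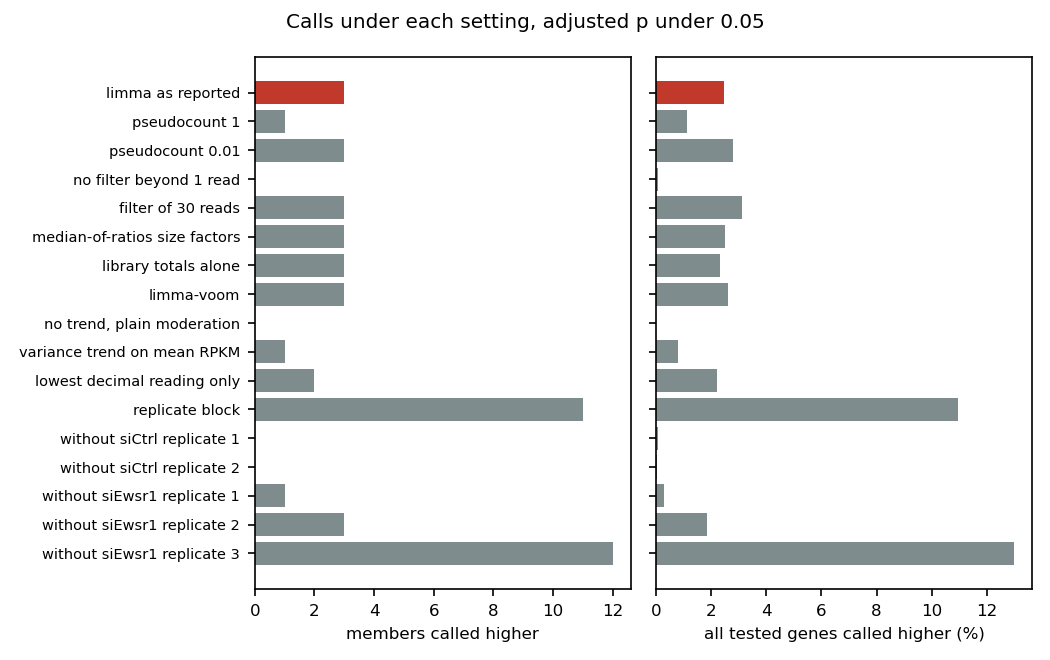
Number of members called higher (left, bars, of 38, or 32 for the lowest decimal reading) and percent of all tested genes called higher (right, bars) under each setting, at an adjusted p under 0.05. The left bars run from 0, reached also on all 5 libraries with no filter beyond 1 read and with no trend, to 12. The 12 of 38 came without siEwsr1 replicate 3, where 13.0% of all genes were called higher. Fits without a siCtrl library hold only 1 control.

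Among the damage kinases and checkpoint adaptors (8 members, median log2 fold change 0.13), Atm rose and the other 7 were not called. Atm measured 10.03 and 10.9 RPKM in siCtrl and 20.1, 19.6 and 17.3 in siEwsr1. Every siEwsr1 library lay above both controls. The log2 fold change was 0.85 (SE 0.0968, 95% interval 0.64 to 1.07, limma adjusted p = 0.0023), or 81.5% more RNA on the group means. In the fits that left out a library its log2 fold change stayed between 0.79 and 0.91, and its limma adjusted p rose to 0.084 and 0.0682 when siCtrl replicate 1 or 2 was dropped. Dropping siEwsr1 replicate 1, 2 or 3 gave a limma adjusted p of 0.0384, 0.0034 or 1.48e-07. The value in siEwsr1 replicate 3 rests on the restored decimal point: 3160 reads and 316 reads (1.73 RPKM) are both whole, and the former was 1256 times as likely given the other 4 libraries. No exonic base of Atm is shared with another gene in GENCODE M21.

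Atr, the sister kinase that senses single-stranded DNA at stalled forks, had a log2 fold change of -0.082 (95% interval -0.34 to 0.17). Its partner Atrip was at 0.0076 (-0.28 to 0.30). A change of the size seen for Atm therefore lies outside both intervals. Topbp1, which activates the Atr kinase and had the highest level of this subgroup, measured 21.8 and 22.5 RPKM in siCtrl and 26.8, 27.4 and 25.6 in siEwsr1. Its groups did not overlap, but its log2 fold change of 0.26 did not pass (SE 0.0832, limma adjusted p = 0.1). The effector kinase genes were not called: Chek1, downstream of Atr, was at 0.21 (limma adjusted p = 0.344) and Chek2, downstream of Atm, at -0.25 (limma adjusted p = 0.256). Chek2 measured 12.7 and 10.8 RPKM in siCtrl and 10.3, 9.04 and 10.3 in siEwsr1, so all 3 siEwsr1 values lay below both controls by a margin smaller than the distance between the controls. In siCtrl replicate 1, 600 reads and 60 reads (1.27 RPKM) are both whole for Chek2, and the former was 2300 times as likely. At the lower reading the siEwsr1 values would not lie below both controls. Mdc1 and Trp53bp1, adaptors that gather at marked chromatin beside a break, had log2 fold changes of 0.18 and 0.076 and were not called.

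Of the 6 genes of break-end processing, none was called by limma, and at an unadjusted p under 0.05 Rbbp8 alone was higher. The subgroup's median log2 fold change was 0.015. Rad50, Mre11a and Nbn encode the complex that binds and first cuts a broken end, and their log2 fold changes were -0.019, 0.049 and -0.10. Rad50, the member with the highest level of all 38, measured 33.5 and 31.5 RPKM in siCtrl and 33.6, 33.9 and 29.0 in siEwsr1, with overlapping groups. Rbbp8, the gene of the endonuclease cofactor CtIP, measured 7.44 and 6.90 RPKM in siCtrl and 10.2, 10.7 and 8.17 in siEwsr1. The groups did not overlap, siEwsr1 replicate 3 was the lowest of its group, and the log2 fold change of 0.42 (SE 0.12, 95% interval 0.16 to 0.69) had a limma adjusted p of 0.0714. Here too a reading 10 times lower was whole in a library, siEwsr1 replicate 1 (1.02 RPKM), and 2461 times less likely. Of the enzymes of long resection, neither called, the helicase gene Blm was at 0.23 (limma adjusted p = 0.228) and the exonuclease gene Exo1 at -0.023, with a 95% interval from -0.21 to 0.16.

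The 12 genes of BRCA proteins and strand-exchange factors had the highest subgroup median, 0.20, and 11 of them had a log2 fold change above 0, but Brca2 alone was called. Brca2 measured 5.06 and 5.39 RPKM in siCtrl and 8.12, 8.89 and 6.62 in siEwsr1. The siEwsr1 values were all above the controls, with siEwsr1 replicate 3 nearest to them. The log2 fold change was 0.57 (SE 0.122, 95% interval 0.30 to 0.84, limma adjusted p = 0.0278), or 50.6% more RNA on the group means. The call was lost without siCtrl replicate 1 (limma adjusted p = 0.269), siCtrl replicate 2 (0.26) or siEwsr1 replicate 1 (0.153), and kept without siEwsr1 replicate 2 (0.0456) or siEwsr1 replicate 3 (9.34e-06). With the trend on RPKM the limma adjusted p was 0.0987. Brca1, the highest of the subgroup and the gene of the ubiquitin ligase that acts upstream of Brca2, measured 26.5 and 25.7 RPKM in siCtrl and 29.9, 30.3 and 27.8 in siEwsr1. Its groups did not overlap, yet the log2 fold change was 0.17 (SE 0.0854, limma adjusted p = 0.284) with a 95% interval from -0.024 to 0.36, which overlaps that of Brca2; the difference between the genes was not tested. Bard1, the ligase partner of Brca1, measured 4.53 and 4.36 RPKM in siCtrl and 5.84, 6.33 and 5.67 in siEwsr1. These groups did not overlap, with a log2 fold change of 0.41 and a limma adjusted p of 0.0567. Palb2, which bridges Brca1 and Brca2, had a log2 fold change of 0.27 and was not called (limma adjusted p = 0.166).

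Rad54l, the motor protein gene that works during strand invasion, lay just outside the threshold. It measured 3.89 and 3.96 RPKM in siCtrl and 4.86, 5.35 and 5.40 in siEwsr1, with no overlap, and its log2 fold change was 0.40 (SE 0.104, limma adjusted p = 0.0551). Exons of Lrrc41 on the other strand cover 15.4% of its exonic bases, and the strand setting of the counting is not known here. Its relative Rad54b was at 0.0955 (limma adjusted p = 0.672), and 35.8% of its exonic bases are shared with Fsbp on the same strand. Of the other strand-exchange genes, Rad51b (0.064), Rad51c (0.047) and Xrcc2 (0.022) lay near 0, with 95% intervals reaching no higher than 0.43. Rad51d was at 0.24 (limma adjusted p = 0.346). Xrcc3 had the largest log2 fold change of the subgroup, 0.59, but the widest interval of all members, from -0.030 to 1.21. It measured 0.670 and 0.699 RPKM in siCtrl and 1.54, 0.935 and 0.866 in siEwsr1, on 29 to 63 reads per library, the fewest of any member. It was not called (limma adjusted p = 0.249), and without siEwsr1 replicate 1, the highest library, the log2 fold change was 0.35 (limma adjusted p = 0.579). Rad52, an annealing protein gene, was at -0.0040 (95% interval -0.25 to 0.24).

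**Figure D3:**
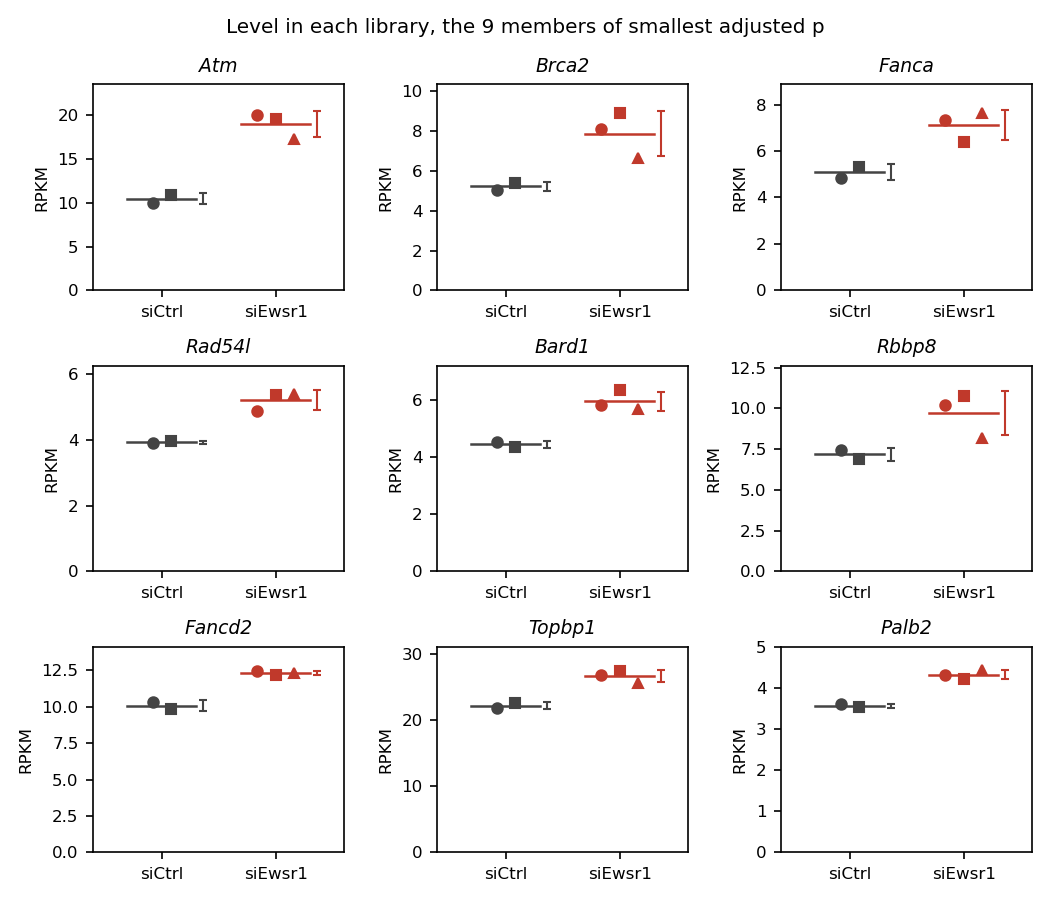
RPKM in each library for the 9 members with the smallest adjusted p, each panel with its own linear axis from 0. Circles, squares and triangles are replicates 1, 2 and 3, horizontal lines are group means and whiskers the SD. In all 9 the siEwsr1 libraries lie above both siCtrl libraries. In Atm, Bard1, Brca2, Rbbp8 and Topbp1 siEwsr1 replicate 3 lies nearest to the controls, and in the other panels replicate 1 or 2 does.

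In the Fanconi core complex and its anchor (8 members, median log2 fold change 0.15), Fanca rose and the other 7 were not called. Fanca measured 4.84 and 5.32 RPKM in siCtrl and 7.35, 6.40 and 7.62 in siEwsr1. All siEwsr1 values lay above the controls, and here siEwsr1 replicate 3 was the highest. The log2 fold change was 0.48 (SE 0.108, 95% interval 0.24 to 0.72, limma adjusted p = 0.0341), or 40.2% more RNA on the group means. Its call was lost without siCtrl replicate 1 (limma adjusted p = 0.312), siCtrl replicate 2 (0.26) or siEwsr1 replicate 1 (0.169), and kept without siEwsr1 replicate 2 (0.0191) or siEwsr1 replicate 3 (0.0026). With the trend on RPKM the limma adjusted p was 0.098. Opposite-strand exons of Zfp276 cover 10.5% of the exonic bases of Fanca, so reads of the 2 genes may not be fully separate. Fancg and Fance, which encode other core subunits, had log2 fold changes of 0.27 each (limma adjusted p = 0.319 and 0.284), and Fancm, the anchor that ties the core complex to DNA, was at 0.23 (limma adjusted p = 0.204). Fancb, the highest of the subgroup, measured 14.3 and 13.8 RPKM in siCtrl and 12.5, 14.3 and 12.5 in siEwsr1, at a log2 fold change of -0.11 (95% interval -0.34 to 0.13). Fancl, the gene of the ubiquitin ligase subunit, was at 0.066 and Fancc at 0.067, both with overlapping groups. Opposite-strand exons cover 13.7% of the exonic bases of Fancl (Vrk2) and 18.6% of those of Fancc (2010111I01Rik and Gm16133). Fancf, an adaptor within the core complex, had the lowest log2 fold change of the 38, -0.34, at 6.39 and 6.42 RPKM in siCtrl and 6.21, 4.11 and 4.995 in siEwsr1. The siEwsr1 libraries spread more than the groups differed from each other at the nearest pair (limma adjusted p = 0.312), and 14.96% of its exonic bases lie under exons of Gas2 on the other strand.

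Downstream of the core complex, none of the 4 genes was called by limma, and at an unadjusted p under 0.05 Fancd2 alone was higher. Fancd2, which is ubiquitinated at crosslinks, measured 10.3 and 9.83 RPKM in siCtrl and 12.5, 12.2 and 12.3 in siEwsr1. The siEwsr1 libraries were tightly grouped (SD 0.15) above both controls, and the log2 fold change was 0.29 (SE 0.0859, 95% interval 0.097 to 0.48, limma adjusted p = 0.0842). Its partner Fanci was at -0.0068 (95% interval -0.24 to 0.23), with 15.95% of its exonic bases under exons of Polg on the other strand. Brip1, the Fanconi helicase gene, was at 0.14 (limma adjusted p = 0.477), and Slx4, the nuclease scaffold gene, at -0.033 (limma adjusted p = 0.917).

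The promoters of the 3 genes that rose, and of the 3 members next in adjusted p that have a promoter entry, are shown to compare the sequence before their starts. They come from the RefSeq table (GRCm38.p6), which held 30 of the 38 members. Each line is the longest stretch, within 250 bases before the RefSeq start, that no GENCODE M21 exon covers, read 5′ to 3′ on the gene's strand; capitals mark matches to the motifs searched.
Atm, chr9:53536741-53536921, minus strand: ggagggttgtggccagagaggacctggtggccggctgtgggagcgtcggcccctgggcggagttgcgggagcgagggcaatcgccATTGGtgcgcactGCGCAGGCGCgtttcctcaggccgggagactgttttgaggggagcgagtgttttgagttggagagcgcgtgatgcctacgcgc
Brca2, chr5:150522371-150522620, plus strand: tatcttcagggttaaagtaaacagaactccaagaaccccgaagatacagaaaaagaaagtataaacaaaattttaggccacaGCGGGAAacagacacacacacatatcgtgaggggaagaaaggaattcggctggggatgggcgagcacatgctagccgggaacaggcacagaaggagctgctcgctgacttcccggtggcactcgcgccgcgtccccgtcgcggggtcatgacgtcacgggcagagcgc
Fanca, chr8:123318577-123318826, minus strand: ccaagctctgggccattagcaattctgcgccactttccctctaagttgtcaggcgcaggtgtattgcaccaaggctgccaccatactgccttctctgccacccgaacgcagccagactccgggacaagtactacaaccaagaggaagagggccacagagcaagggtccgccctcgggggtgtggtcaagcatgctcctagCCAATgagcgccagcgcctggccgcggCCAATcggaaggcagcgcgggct
Rad54l, chr4:116123691-116123839, minus strand: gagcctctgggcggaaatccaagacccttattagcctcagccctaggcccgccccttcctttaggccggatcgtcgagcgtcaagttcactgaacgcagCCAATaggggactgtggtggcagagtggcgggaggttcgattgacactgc
Bard1, chr1:71103147-71103222, minus strand: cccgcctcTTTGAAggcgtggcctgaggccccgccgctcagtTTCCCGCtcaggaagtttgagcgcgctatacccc
Topbp1, chr9:103305083-103305214, plus strand: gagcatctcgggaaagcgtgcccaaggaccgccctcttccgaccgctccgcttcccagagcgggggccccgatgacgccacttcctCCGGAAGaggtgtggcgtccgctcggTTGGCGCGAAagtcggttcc

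Each motif was searched on both strands in windows from 250 bases before to 50 after the RefSeq start. E2F was searched as TTCCCGC, as the variant TTCGCGC, as the variant TTGCCGC and as the variant TTGGCGC. The cell cycle element CHR was searched as TTTGAA and as the variant TTCGAA, the CCAAT box by those 5 letters, the ETS motif as CCGGAAG and NRF1 by its palindromic consensus. For each member only the window with its start nearest the GENCODE start was kept. That RefSeq start lay 65533 bases from the GENCODE start in Fancc, 2092 in Slx4 and 949 in Fancl. The shares of all windows and of tested genes count every distinct window, so the selection differs. An E2F match was found in 17 of the 30 member windows (56.7%), in 9.57% of all 32851 windows and in 16.7% of the 12835 windows of tested genes. CCAAT was found in 19 (63.3%), against 37.4% and 38.4%. ETS matched 7 (23.3%, against 8.86% and 17.6%), NRF1 2 (6.67%, against 4.6% and 9.94%) and CHR 2 (6.67%, against 19.2% and 13.8%). Counting back from the RefSeq start, the Brca2 E2F match begins at position -168, the CCAAT matches of Fanca at -50 and -23, that of Rad54l at -50, and the CCAAT and printed NRF1 matches of Atm at -165 and -152. Atm also holds a second NRF1 match at -73, and an E2F match at 16 and an ETS match at 10 after the start, which are not printed. In Topbp1 the E2F matches at -132 and -129 overlap on opposite strands. Members with an E2F match included those at both ends of the changes, Atm (0.85) and Fancf (-0.34), and Fanca, which rose, had none of the E2F letters searched in its window. These are matches of letters, not measured binding.

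Some members start close to a gene that runs the other way. For 12 members a tested protein-coding gene on the opposite strand starts within 1000 bases of the member's GENCODE start, a search added after the values were seen, and in 7 of the 12 pairs both genes had the same sign of log2 fold change. Npat, a regulator of histone transcription whose start lies 307 bases from that of Atm, measured 18.1 ± 2.04 RPKM (SD, n = 2) in siCtrl and 20.7 ± 2.28 (SD, n = 3) in siEwsr1. Its log2 fold change was 0.19 (SE 0.115, limma adjusted p = 0.372) beside 0.85 for Atm; the difference between the neighbours was not tested. Emc3, which starts 30 bases from Fancd2, was at -0.28 (limma adjusted p = 0.091), opposite in sign to Fancd2 (0.29). Nbr1 beside Brca1 was at 0.14, and Pomgnt1 beside Rad54l at -0.19, both not called. Zfyve21 was at 0.57 (limma adjusted p = 0.223) beside 0.59 for Xrcc3, and Gas2 at -0.22 (limma adjusted p = 0.447) beside -0.34 for Fancf.

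In a hand-made list of 58 other recombination, Fanconi and checkpoint genes, 1 rose and none fell by limma. Over all genes tested, 2.47% rose and 2.69% fell. At an unadjusted p under 0.05, limma gave 18 of the list higher and 2 lower, against 11.2% and 11.0% of all genes. Limma-voom called 2 higher, against 2.62%. The list's median log2 fold change was 0.14, and 44 lay above 0, where 49.4% of all genes did. The gene that rose was Brcc3, a deubiquitinase subunit of the BRCA1-A complex, at 5.60 and 5.44 RPKM in siCtrl and 9.14, 9.30 and 6.84 in siEwsr1. Its log2 fold change was 0.59 (SE 0.133, limma adjusted p = 0.035), and siEwsr1 replicate 3 again lay nearest to the controls. Brcc3 was not called once either siCtrl library, or replicate 1 or 2 of siEwsr1, was left out (limma adjusted p between 0.0611 and 0.351). Of 14 genes of non-homologous end joining, the route that rejoins ends without a template, Tdp2 rose (0.44, limma adjusted p = 0.0457) and the median was 0.20. Among 31 mismatch and excision repair genes (median 0.12, lowest -0.54), 3 rose and none fell by limma. Those that rose were Neil3, a glycosylase gene (0.49), Msh3, a mismatch recognition gene (0.41), and Ercc5, an excision nuclease gene (0.40). The largest limma adjusted p among these 3 was 0.0408. By limma, 5 of the list were higher and 2 lower at an unadjusted p under 0.05, against 11.2% and 11.0% of all genes. Limma-voom called 3 higher, against 2.62% of all genes, and 1 lower, as it did 463 of the 14933 genes. Leaving out siEwsr1 replicate 2 kept Neil3 called (limma adjusted p = 0.0482). Tdp2, Msh3 and Ercc5 were not called in that fit (limma adjusted p = 0.0949, 0.0529 and 0.0504). Without siEwsr1 replicate 3 the other recombination genes had 23 higher and 2 lower, end joining 4 and 1, and mismatch and excision repair 6 and 1. That fit called 13.0% of all genes higher. All of the calls made with 5 libraries were lost with the trend on RPKM and in fits without either siCtrl library or without siEwsr1 replicate 1.

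Beside these, 6 of 41 genes of the DNA replication fork and origin rose and none fell, against 2.47% and 2.69% of all genes. The median was 0.23, and 37 lay above 0, where 49.4% of all genes did. The 6 that rose were Rfc5, a clamp loader gene (0.68), the replicative helicase genes Mcm7 (0.49), Mcm5 (0.47) and Mcm6 (0.44), the helicase cofactor Cdc45 (0.44) and Rrm2, which makes deoxyribonucleotides (0.43). With the trend on RPKM 2 of the 41 were called, without either siCtrl library none was, without siEwsr1 replicate 1 only Rfc5 was, and without siEwsr1 replicate 3 the list had 17 higher and 1 lower. Of 20 G2 and mitosis markers, 0 were called by limma or limma-voom, and the median was -0.028. At an unadjusted p under 0.05, limma gave 1 higher and 1 lower, against 11.2% and 11.0% of all genes. Without siEwsr1 replicate 3, 3 were higher and 3 lower. That fit called 13.0% of all genes higher. The fits on the RPKM trend and without siEwsr1 replicate 1 called 0.783% and 0.285% higher. The part of the replication genes in the members' result was not tested. The members' median log2 difference from the siCtrl mean was 0.16, 0.18 and 0.10 in siEwsr1 replicates 1, 2 and 3, where that of the replication list was 0.22, 0.20 and 0.21 and that of all genes lay between -0.0048 and 0.0063. Between the controls themselves the members' median difference was -0.021.

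**Figure D4:**
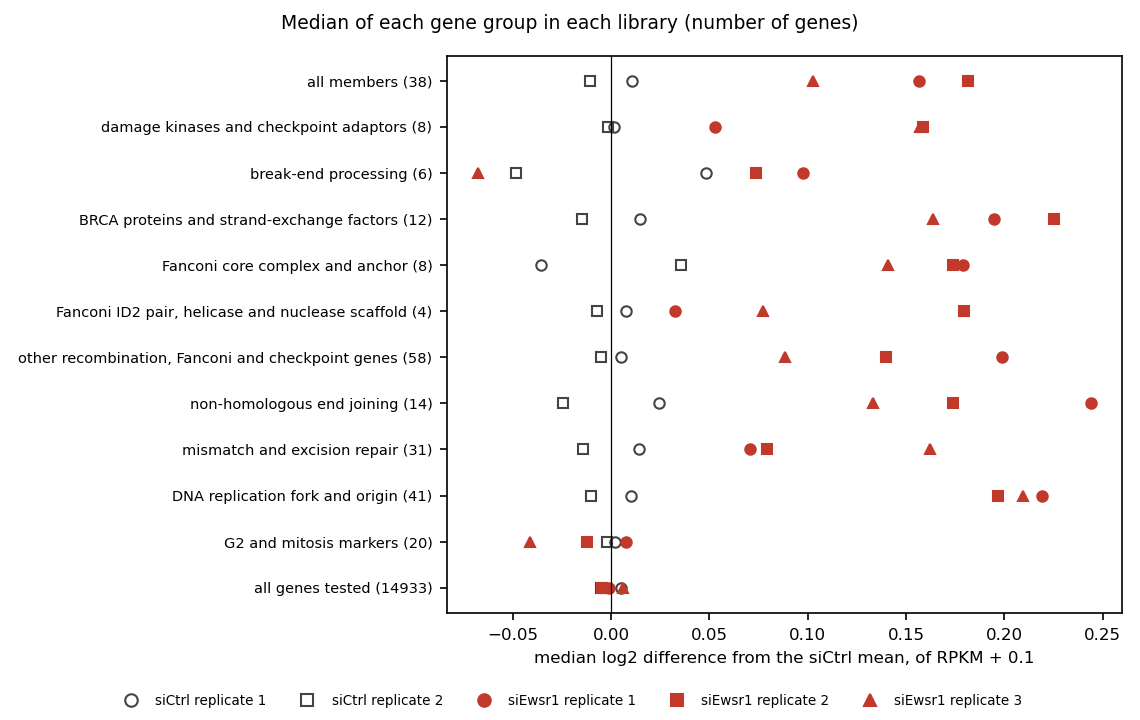
Median over each gene group of the log2 difference from the siCtrl mean (horizontal axis, on RPKM + 0.1), for each library; open symbols are siCtrl, filled red symbols siEwsr1, and the number of genes is in parentheses. All members together lie at 0.10 to 0.18 in siEwsr1, break-end processing straddles 0, and the BRCA and strand-exchange group lies at 0.16 to 0.23.

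Length and level were set beside the changes. Spearman's rho between log2 fold change and exonic length was 0.35 over the 38 members and 0.041 over all genes tested, and with mean RPKM it was -0.09 over the members. These are descriptions across genes of the same libraries, which are not independent replicates. The length is that of all annotated exons of a gene together, which is 10338 bases for Atm, 13643 for Brca2 and 8761 for Fanca. Atr, with the longest exonic sequence of 23629 bases, was at -0.082.

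In the annotation (GRCm38, GENCODE M21) Atm spans bases 53439149 to 53536740 of chromosome 9 on the minus strand, Brca2 bases 150522630 to 150570329 of chromosome 5 on the plus strand, and Fanca bases 123268300 to 123318576 of chromosome 8 on the minus strand. Their Ensembl identifiers are ENSMUSG00000034218, ENSMUSG00000041147 and ENSMUSG00000032815. Chromosome 9 holds 6 of the 38 members, and of these Atm alone was called. The exact permutation test of 2 against 3 libraries cannot give a two-sided p below 0.1 for a single gene, so all calls rest on the spread that limma pools over genes.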

How the data were processed

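The submitters' processing notes name GRCm38, edgeR without a version, featureCounts 1.5.1 and STAR 2.5.2b. What annotation release, strand setting and multi-mapping rule applied is not given in the sources used here. Each gene has, in the table that the authors deposited, 1 value per library, with no unit in the header. These values behave as RPKM whose decimal point was lost at 1 and above. It was restored by requiring whole reads (within 1e-06 reads) given GENCODE M21 exonic lengths and the library total, and by likeness between libraries with no use of the groups: of 27255 genes above 0, 26641 were recovered with the M21 length and 565 with a solved length, and 67 at odds under 20 were left out. Recovered reads summed to within 0.0299% of the totals. All 38 members used the M21 length. In 6 of them a value in 1 library also had a lower whole reading, at odds of at least 1256 to 1 against it. These were Atm, Chek2, Mdc1, Trp53bp1, Rbbp8 and Fancb. Values printed are RPKM scaled by TMM factors (R 4.3.3). Genes needed 10 reads, at the median library size, in 2 libraries. Limma 3.58.1 was fitted to log2(RPKM + 0.1), which understates changes of low genes, with robust moderation and a variance trend on mean log2 CPM, over all 5 libraries grouped by title. Limma's usual trend, on mean log2 RPKM, was run first; it called 255 genes and 1 member against 770 and 3. The trend on reads was adopted after that, because counting error follows reads and because its count was close to that of an earlier analysis of these data, and the other stands as an alternative. Genes were called at a Benjamini-Hochberg adjusted p under 0.05 over 14933 genes. Intervals are 95%, per gene. Limma-voom and 15 other settings were tried as alternatives. Scripts were tested on simulated data. Per-library values are given for called members and, in each subgroup, for the member with the largest change and with the highest level, and for a few chosen after values were seen (Chek2, Bard1, Rad54l, Fancf); list genes are named where called, at most 6 per list. The values of 1 further gene are not reported here. Members and lists were chosen with earlier results of these data known.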

Additional observations from a re-analysis of the deposited data

How the results depend on the processing

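The members had 29 to 6455 reads per library, and the groups 2 and 3 libraries; leaving out a library moved most counts, in both directions. Atm, Brca2 and Fanca kept a positive log2 fold change under every alternative run, Atm from 0.79 to 0.92 over 15, Brca2 from 0.48 to 0.69 and Fanca from 0.41 to 0.55 over 16, with adjusted p from 6.79e-12 to 0.084, 6.7e-08 to 0.269 and 0.0015 to 0.312. Other size factors, library totals alone, a pseudocount of 0.01, a filter of 30 reads and voom kept 3 members called.

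With a pseudocount of 1, 370 genes were called and 1 member (Atm), so 0 in the BRCA and Fanconi core subgroups, and 0, 0, 1 and 3 in the lists of other recombination genes, end joining, excision repair and replication. With no filter beyond 1 read, 60 genes and 0 in each subgroup and list were called, and with no trend in the limma fit 0 genes (2792 genes and 9 members at an unadjusted p under 0.05). With the variance trend on mean RPKM, which was run before the trend on reads was adopted, 255 genes and 1 member (Atm) were called, 0 in the BRCA and core subgroups, and 0, 0, 0 and 2 in those 4 lists. Limma-voom called 2 other recombination genes; the planned count-model tests were run on the recovered reads and then set aside, because no deposited column holds counts, and their values are not reported here. Without the members whose decimal point was read above the lowest position, Atm was not tested and the kinase subgroup had 0 calls; the cause of the other changes was not tested.

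Leaving out each library gave 6 to 3804 genes called, 0 to 12 members higher and a median log2 fold change of 0.086 to 0.16, with 0.16 without siEwsr1 replicate 3. Calls ran from 0 to 3 (kinases), 0 to 2 (end processing), 0 to 4 (BRCA), 0 to 2 (core) and 0 to 1 (ID2 pair), and in the lists from 0 to 25 (other recombination), 0 to 5 (end joining), 0 to 7 (excision repair), 0 to 18 (replication) and 0 to 6 (mitosis).

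Replicate numbers were not taken to pair the libraries, because the labels do not say what a number marks. Deviations from the group means correlated at 0.026 and -0.13 in same-numbered libraries. Those of siCtrl replicate 1 correlated at 0.13 and -0.15 with siEwsr1 replicates 2 and 3. With 2 controls the control deviations mirror each other, so these values cannot decide whether the numbers pair. With the replicate block, 3251 of the 14933 genes were called, 1637 higher and 1614 lower, and 11 of the 38 members, all higher. The members' median was 0.17, and the subgroups held 3, 2, 3, 2 and 1 calls in the order above. The lists held 24, 4, 7, 16 and 5 calls, of which 2, 0, 1, 1 and 3 were lower. Only 2 numbers are shared, so siEwsr1 replicate 3 then adds nothing to the estimate.

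Signs changed in members near 0, none called. Under the block Atr was at 0.027, Atrip at -0.0847, Rad50 at 0.053, Fancc at -0.0014 and Fanci at 0.0029; Atrip was at -0.00175 with a filter of 30 reads and at -0.014 with library totals alone, where Xrcc2 was at -0.00041. Over the left-out libraries the log2 fold changes ran as follows: Atr (-0.16 to 0.022), Atrip (-0.089 to 0.082), Rad50 (-0.065 to 0.049), Mre11a (-0.0060 to 0.11), Rad51b (-0.011 to 0.14), Rad51c (-0.056 to 0.14), Xrcc2 (-0.036 to 0.074), Rad52 (-0.030 to 0.015), Fancc (-0.068 to 0.20), Fancl (-0.053 to 0.22), Fanci (-0.053 to 0.033), Slx4 (-0.14 to 0.094). Of 602 member values under alternatives, 539 kept their direction and call, and most of these belong to the 35 members not called. Of the rest, 18 lost a call, 17 gained one and 28 changed sign. The call was kept in 11 of 15 alternatives for Atm, 9 of 16 for Brca2 and 9 of 16 for Fanca.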
